A study of Mus musculus with 9 samples.

Results

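The 30 genes described here encode enzymes of cholesterol synthesis, the regulators of the transcription factor SREBP2, and proteins that move, esterify or take up cholesterol. They were taken by gene symbol from RNA sequencing counts of whole mouse liver, in which 24421 gene symbols are listed. All 30 were found, and all 30 were among the 14104 genes with enough reads to be tested. The livers came from C57BL/6J mice aged 5 weeks that had been without food for 6 h. WT livers (5 libraries, 1 per mouse as far as the numbers in the design text tell) came from control littermates, and OGT-deficient livers (4 libraries) from mice with Ogt deleted. Ogt encodes O-GlcNAc transferase, which attaches N-acetylglucosamine to nuclear and cytoplasmic proteins. How and in which cells Ogt was deleted, and the sex and litter of each mouse, is information not given in the sources used here.

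Cholesterol is built from acetyl-CoA in a long chain of reactions. A first arm condenses acetyl units into mevalonate and turns it into isoprenoid units, which are joined to farnesyl diphosphate. A second arm joins farnesyl units to squalene, closes the rings to lanosterol, and trims and rearranges lanosterol to cholesterol. The genes of both arms are classical targets of SREBP2. SREBP2 is made as a membrane protein of the endoplasmic reticulum, where SCAP binds it. When sterols are scarce SCAP escorts it to the Golgi for proteolytic release, and when sterols are plentiful INSIG proteins hold the complex back. The liver is a main site of both cholesterol synthesis and lipoprotein uptake.

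Counts assigned to genes numbered 32337861 to 54130901 per library. Levels are given as CPM, the count per 1000000 reads after scaling by the trimmed mean of M-values, and 1 CPM stood for 28.8 to 52.5 reads. Values of single libraries are given in the order WT 1 to 5 and OGT-deficient 1 to 4. Ogt itself fell from 51.1 to 73.1 CPM in WT to 14.3 to 20.6 CPM in OGT-deficient liver (fitted log2 fold change -1.86, edgeR adjusted p = 3.53e-07). All 7 bile duct markers and all 5 markers of dividing cells rose, as did 6 of 8 macrophage markers and 6 of 7 markers of stellate cells and myofibroblasts. Of 8 hepatocyte markers 6 fell, and 2 of 5 endothelial markers fell. Among all tested genes 31.6% rose and 29.4% fell. Summed over its list, the hepatocyte level was 98390 to 118329 CPM in WT and 49256 to 63832 CPM in OGT-deficient liver, and the bile duct level 31.4 to 60.2 CPM in WT and 148.0 to 257.3 CPM in OGT-deficient liver. Each of these markers had reads in every library. Alb made up most of the hepatocyte sum, with a mean that went from 73880 to 33491 CPM. The hepatocyte markers that did not fall were Apob (means 4624 and 5770 CPM) and Pck1 (3902 and 3788 CPM). Spp1 made up most of the bile duct sum, with a mean that went from 34.5 to 157 CPM. The part of the shift in cell markers in the results below was not tested. In whole tissue fewer cells of a type and less RNA per cell cannot be told apart.

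Cholesterol genes were more often lower than higher in OGT-deficient liver, and unevenly so along the pathway. In edgeR's quasi-likelihood test, adjusted by Benjamini-Hochberg across the 14104 genes and read at a threshold of 0.05, 14 of the 30 genes fell, 3 rose and 13 did not pass. Among all tested genes 29.4% fell, 31.6% rose and 61.1% changed in either direction. The share of the 30 genes that changed, 56.7%, was thus near the background. The share that fell was 46.7%, and the share that rose was 10%. The median log2 fold change of the 30 genes was -0.32, against 0.02 for all tested genes. The 30 genes were chosen with earlier results of these data known. Their shares beside those of all tested genes are a description and not a test. A fall of at least 2-fold was found for Tm7sf2, Msmo1, Hsd17b7 and Stard4, where 6.80% of all tested genes fell by as much. The 4 OGT-deficient values lay entirely below the 5 WT values for 13 genes and entirely above for 1, where this held for 25.0% and 26.2% of all tested genes and for 51.3% in either direction. With upper-quartile scaling in place of the trimmed mean, the median of all tested genes moved up by 0.123 and 11 of the 30 genes fell and 4 rose. Of all calls 62.5% were then upward, in place of 51.8%.

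**Figure D1:**
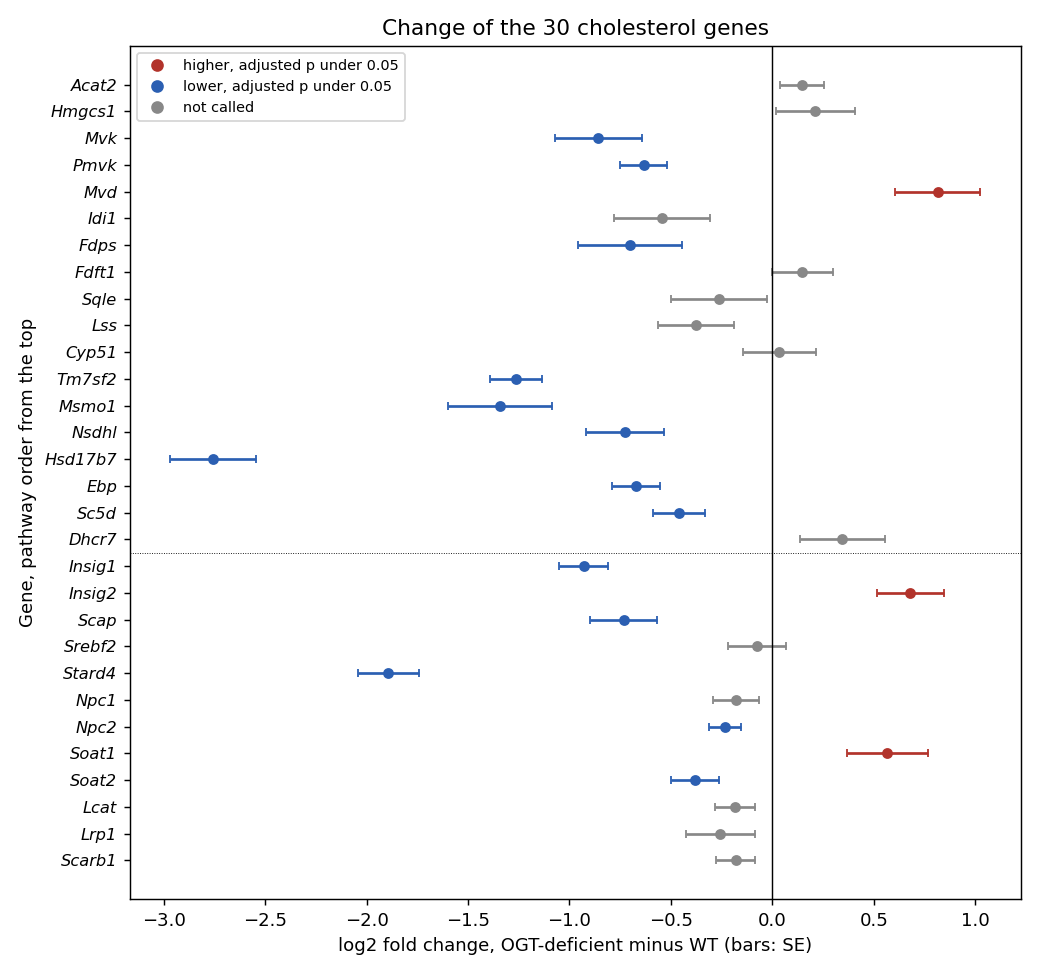
Log2 fold change (OGT-deficient minus WT, x axis) of the 30 cholesterol genes in pathway order, with bars for the SE. The 18 synthesis enzymes stand above the dotted line. Hsd17b7 (-2.76) and Stard4 (-1.89) lie farthest to the left, and Mvd (0.82), Insig2 (0.68) and Soat1 (0.57) are the genes that rose.

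Along the first arm, 3 of 7 enzymes fell, 1 rose and 3 did not pass, where 29.4% of all tested genes fell and 31.6% rose. Acat2 encodes the cytosolic thiolase that joins the first acetyl-CoA units. It measured 49.9, 48.7, 54.7, 63.7 and 44.1 CPM in WT and 51.7, 55.6, 60.9 and 62.9 CPM in OGT-deficient liver, and the groups overlapped (fitted log2 fold change 0.15, SE 0.11, adjusted p = 0.249). Transcripts of Acat3 and Tcp1 share 45.9% of the 50-base stretches of Acat2, so its value is uncertain. Reads aligned to more than 1 place, which were set aside, numbered between 16167401 and 35276937 in WT and between 7997176 and 9317390 in OGT-deficient libraries, and their part in the genes with shared stretches was not tested. With upper-quartile scaling Acat2 passed the test (adjusted p = 0.0335, range over all alternatives 0.0335 to 0.589).

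Hmgcs1 (chromosome 13, 119690379 to 119708260, plus strand, GRCm38) encodes the synthase that makes HMG-CoA, the precursor of mevalonate. It stood at 162, 139, 202, 262 and 169 CPM in the WT libraries and 142, 271, 222 and 231 CPM in the OGT-deficient libraries. Its highest OGT-deficient value exceeded every WT value and its lowest fell among the lowest WT values (fitted log2 fold change 0.21, SE 0.20, adjusted p = 0.363). The entry Gm48342 shares 13.6% of its 50-base stretches. The upstream bases of Hmgcs1 (RefSeq, GRCm38.p6, in the direction of transcription) are shown because they hold the only strict sterol regulatory element, TCACNCCAC, found in the promoter windows of 23 of the 30 genes that were read. Capitals mark that element and the boxes of the factor NF-Y, CCAAT, in either orientation.
Hmgcs1 (chr13:119690101-119690350, plus strand): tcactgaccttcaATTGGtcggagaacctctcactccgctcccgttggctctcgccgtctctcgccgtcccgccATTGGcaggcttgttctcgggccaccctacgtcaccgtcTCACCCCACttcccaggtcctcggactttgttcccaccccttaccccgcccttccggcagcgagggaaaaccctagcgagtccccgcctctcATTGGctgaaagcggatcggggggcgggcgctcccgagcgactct
The sterol element TCACCCCAC begins at position -137, counted back from the start, and the NF-Y boxes at -237, -176 and -45. GC boxes (GGGCGG, either strand), which are not marked by capitals, begin at -92 and -24.

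The kinases that phosphorylate mevalonate in sequence both fell. Mvk, the mevalonate kinase gene, measured 29.2, 24.5, 40.2, 34.3 and 25.2 CPM in WT and 9.32, 21.9, 18.3 and 18.3 CPM in OGT-deficient liver. The highest OGT-deficient value lay below the lowest WT value (fitted log2 fold change -0.86, SE 0.22, adjusted p = 0.00415). Pmvk, the phosphomevalonate kinase gene, went from 37.9, 35.8, 39.6, 41.4 and 27.2 CPM to 22.0, 22.2, 23.1 and 26.4 CPM. Its groups did not overlap either, and the 4 OGT-deficient libraries were close together. The mean went from 36.4 ± 5.52 (SD, n = 5) to 23.5 ± 2.04 CPM (SD, n = 4), a fitted log2 fold change of -0.63 (with SE 0.12, adjusted p = 0.000455).

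Mvd (chromosome 8, 122433601 to 122443422, minus strand) encodes the decarboxylase that follows both kinases, and it is the synthesis enzyme that rose. It measured 21.7, 20.2, 33.0, 32.6 and 20.6 CPM in WT and 27.0, 54.3, 51.3 and 47.8 CPM in OGT-deficient liver, so that 3 of 4 OGT-deficient libraries lay above every WT library and OGT-deficient 1 lay among them. Its mean rose from 25.6 ± 6.58 (SD, n = 5) to 45.1 ± 12.3 CPM (SD, n = 4), a fitted log2 fold change of 0.82 (with SE 0.21, adjusted p = 0.00445). Mvd stood at 0.744 to 0.951 times Mvk in the WT libraries, and at 2.48 to 2.90 times in the OGT-deficient libraries, a pair chosen after its values were seen. OGT-deficient 1 had low values for both genes, and its ratio of 2.90 was the highest of the 9. The upstream bases of Mvd are shown, marked as for Hmgcs1, as those of the synthesis enzyme gene that rose.
Mvd (chr8:122443423-122443672, minus strand): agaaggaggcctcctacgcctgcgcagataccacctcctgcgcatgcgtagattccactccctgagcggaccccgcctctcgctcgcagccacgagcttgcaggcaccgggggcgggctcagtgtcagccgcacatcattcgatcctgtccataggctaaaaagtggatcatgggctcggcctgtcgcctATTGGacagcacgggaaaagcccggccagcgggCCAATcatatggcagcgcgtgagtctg
They hold NF-Y boxes at -60 and -27, in opposite orientations, and a GC box at -140.

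Idi1 and Fdps close the first arm. Idi1 encodes the isomerase of the isoprenoid unit and Fdps the synthase of farnesyl diphosphate. Idi1 measured 145, 168, 236, 279 and 176 CPM in WT and 74.4, 158, 146 and 172 CPM in OGT-deficient liver (fitted log2 fold change -0.54, SE 0.24, adjusted p = 0.0615). It passed the threshold under 5 of 17 alternatives, among them DESeq2 (adjusted p = 0.0274) and leaving out WT 1 (0.0322) or OGT-deficient 4 (0.0361), within a range of 0.00587 to 0.150 over all alternatives. Fdps went from 137, 139, 249, 264 and 151 CPM in WT to 66.1, 134, 110.4 and 151 CPM in OGT-deficient liver (fitted log2 fold change -0.70, SE 0.26, adjusted p = 0.0301). WT 3 and WT 4 were far above the other WT libraries, and the groups overlapped. The call for Fdps was lost without WT 3 (0.0730), WT 4 (0.0746), OGT-deficient 1 (0.0715) or OGT-deficient 3 (0.0658), and with upper-quartile factors (0.0563). Other transcripts share 30.5% of the 50-base stretches of Idi1 and 11.7% of those of Fdps, so both values are uncertain.

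**Figure D2:**
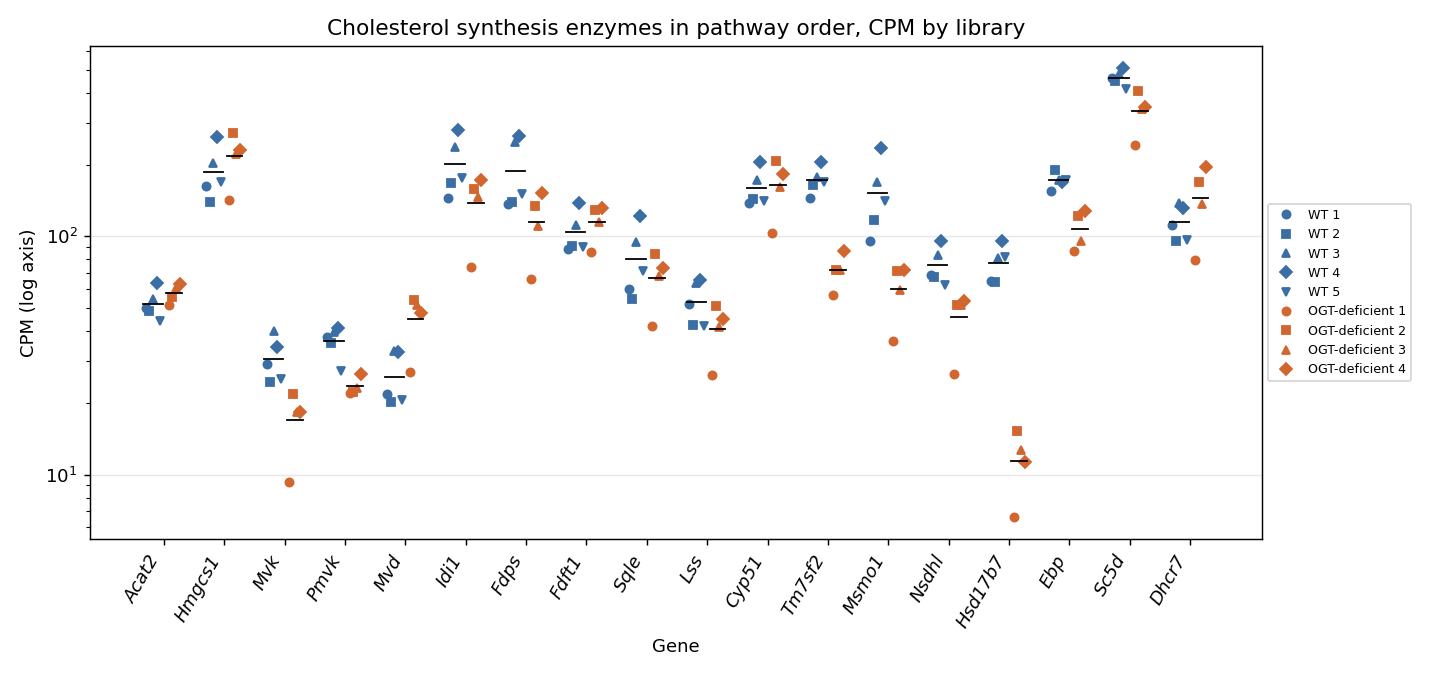
CPM (log axis) of the 18 synthesis enzymes in pathway order, with a point for each of 5 WT (blue) and 4 OGT-deficient (orange) libraries and a line at each group mean. The groups are farthest apart at Hsd17b7, overlap from Fdft1 to Cyp51, and OGT-deficient 1 is the lowest orange point of every enzyme.

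The second arm opened with enzymes that did not pass the test. Fdft1, the squalene synthase gene, measured 88.6, 91.4, 112, 138 and 90.5 CPM in WT and 86.0, 129, 115 and 131 CPM in OGT-deficient liver (fitted log2 fold change 0.15, SE 0.15, adjusted p = 0.414). The cathepsin gene Ctsb on the opposite strand covers 18.3% of its exonic bases. No source used here says whether reads were counted by strand. Transcripts of Ctsb and Gm6781 share 30.7% of the 50-base stretches of Fdft1. The overlap and the shared stretches leave its value uncertain. Sqle, which encodes the epoxidase that oxidises squalene, stood at 60.1, 54.6, 94.8, 121 and 71.5 CPM in WT and 42.0, 84.2, 68.3 and 73.7 CPM in OGT-deficient liver (fitted log2 fold change -0.26, SE 0.24, adjusted p = 0.356). Lss encodes the cyclase that forms lanosterol, and it measured 51.8, 42.3, 63.9, 65.5 and 41.9 CPM in WT and 26.2, 50.9, 41.5 and 45.2 CPM in OGT-deficient liver (fitted log2 fold change -0.37, SE 0.19, adjusted p = 0.101). Without OGT-deficient 2 Lss passed (adjusted p = 0.0473, range over all alternatives 0.0473 to 0.233). For Cyp51, the lanosterol demethylase gene, the values were 137, 144, 173, 204 and 141 CPM in WT and 104, 208, 161 and 183 CPM in OGT-deficient liver (fitted log2 fold change 0.04, SE 0.18, adjusted p = 0.875). The groups of all 4 genes overlapped.

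The 6 enzyme genes from Tm7sf2 to Sc5d all fell, and in each of them every OGT-deficient library lay below every WT library. The ends of this run were drawn after the values were seen, so its count carries no test. Of the 11 enzymes of the whole second arm 6 fell, and 6 had every OGT-deficient library below every WT library. Among all tested genes 29.4% fell, and 25.0% had every OGT-deficient library below every WT library. Tm7sf2, which encodes a reductase acting after the lanosterol demethylase, measured 145, 165, 178, 206 and 169 CPM in WT and 56.6, 72.3, 72.1 and 86.5 CPM in OGT-deficient liver (fitted log2 fold change -1.26, SE 0.13, adjusted p = 3.87e-06). The gene Vps51 on the same strand covers 12.1% of its exonic bases. Msmo1 encodes the methyl sterol oxidase that starts the removal of a pair of methyl groups from the first ring. It went from 95.9, 117, 169.6, 235 and 141 CPM to 36.4, 71.3, 59.3 and 72.3 CPM (fitted log2 fold change -1.34, SE 0.26, adjusted p = 0.000588). WT 4 was the highest library and WT 1 the lowest of its group. Nsdhl, an X-linked gene for the dehydrogenase of the same demethylation, stood at 68.7, 67.8, 83.4, 95.4 and 62.4 CPM in WT and 26.5, 51.4, 51.4 and 53.3 CPM in OGT-deficient liver (fitted log2 fold change -0.73, SE 0.19, adjusted p = 0.00535). OGT-deficient 1 was far below the other OGT-deficient libraries.

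Hsd17b7 (chromosome 1, 169949535 to 169969241, minus strand) encodes the ketoreductase that completes each round of this demethylation, and it fell most of the 30 genes. It measured 65.0, 64.2, 80.7, 95.3 and 81.8 CPM in WT and 6.64, 15.3, 12.6 and 11.3 CPM in OGT-deficient liver, a decrease of 6.76-fold in the mean (fitted log2 fold change -2.76, SE 0.21, adjusted p = 4.09e-07). The lowest WT library lay 4.20-fold above the highest OGT-deficient library. None of its 50-base stretches occurs in a transcript of another gene, and no other listed gene covers its exons. In size of log2 fold change, in either direction, it stood at the percentile 96.4 of all tested genes. Its upstream bases are shown as those of the gene that fell most, without bases that lie inside the gene as annotated by GENCODE.
Hsd17b7 (chr1:169969242-169969455, minus strand): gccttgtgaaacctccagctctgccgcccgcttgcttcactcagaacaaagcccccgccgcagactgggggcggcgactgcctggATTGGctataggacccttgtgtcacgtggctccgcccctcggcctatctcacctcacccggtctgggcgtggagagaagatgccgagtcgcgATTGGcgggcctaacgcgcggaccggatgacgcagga
They hold NF-Y boxes at -165 and -73, GC boxes at -227, -182 and -134 and an E-box, CACGTG, at -143. A further NF-Y box at -12 lies among the bases left out.

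Ebp and Sc5d act later on the sterol rings. Ebp, the X-linked gene for the isomerase that shifts a double bond, went from 155, 189.7, 172, 169.8 and 172 CPM to 86.5, 121, 95.6 and 128 CPM (fitted log2 fold change -0.67, SE 0.12, adjusted p = 0.000304). Sc5d, the gene for the desaturase that follows, had the highest level per kilobase of exon of the 18 enzymes in both groups, and measured 459.7, 447, 479.5, 507 and 415 CPM in WT and 242, 408, 343 and 349.8 CPM in OGT-deficient liver (fitted log2 fold change -0.46, SE 0.13, adjusted p = 0.00820). Dhcr7, the gene for the reductase that makes cholesterol from its immediate precursor in one branch of the pathway, did not pass. It measured 111, 95.4, 138, 131 and 96.6 CPM in WT and 79.6, 169, 137 and 196 CPM in OGT-deficient liver (fitted log2 fold change 0.35, SE 0.21, adjusted p = 0.170). Dhcr7 spread most of the 18 enzymes in OGT-deficient liver, with a coefficient of variation of 34.3%. Without OGT-deficient 1 it was called higher (log2 fold change 0.53, adjusted p = 0.00914, range over all alternatives 0.00914 to 0.573).

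No enzyme of the second arm rose in edgeR's test, at an unadjusted p under 0.05 (0 of 11), in DESeq2 (0 of 11) or in limma voom (0 of 11), and Dhcr7 did so without OGT-deficient 1, as above. Over both arms 9 of 18 enzymes fell and 1 rose, where 29.4% of all tested genes fell and 31.6% rose. The median log2 fold change of the 18 enzymes was -0.50. In each pair below, the level of one enzyme relative to another in the same library separated the groups. Hsd17b7, Tm7sf2, Msmo1, Nsdhl and Sc5d did so by their single levels already. Only for Fdps to Fdft1 did the single levels of both genes overlap. The ratio of Hsd17b7 to Cyp51 was 0.473, 0.446, 0.467, 0.466 and 0.580 in WT, and it was 0.0640, 0.0735, 0.0786 and 0.0616 in OGT-deficient liver. Tm7sf2 stood at 1.01 to 1.20 times Cyp51 in WT, and at 0.348 to 0.546 times in OGT-deficient liver. Msmo1 stood at 0.698 to 1.15 times Cyp51 in WT and at 0.343 to 0.395 times Cyp51 in OGT-deficient liver. For Nsdhl the ratio fell between 0.442 and 0.50 in WT, and between 0.247 and 0.320 in OGT-deficient liver. Fdps stood at 1.52 to 2.22 times Fdft1 in WT, and at 0.768 to 1.15 times in OGT-deficient liver. Dhcr7 relative to Sc5d moved the other way, from 0.213 to 0.287 in WT to between 0.329 and 0.559 in OGT-deficient liver. These pairs were chosen after their values were seen and carry no test.

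The synthesis enzymes also varied together between libraries of the same group. Summed over the 18 enzymes, the WT libraries held 2021, 2053, 2599, 2945 and 2095 CPM, and the OGT-deficient libraries 1185, 2096, 1789 and 2039 CPM. WT 4 held the highest WT value for 14 of 18 enzymes, WT 3 for 3 and WT 2 for 1. WT 1, 2 and 5 held the lowest value for 7, 6 and 5 enzymes. OGT-deficient 1 held the lowest value of its group for all 18 enzymes, with a median deviation of -0.62 on the log2 scale from the group mean. OGT-deficient 4 was highest for 10 enzymes and OGT-deficient 2 for 8. The median coefficient of variation of the 18 enzymes was 19.1% in WT and 26.9% in OGT-deficient liver, against 12.7% in both groups for all tested genes. In OGT-deficient 1 the summed hepatocyte markers were 49256 CPM and the summed bile duct markers 257.3 CPM, the lowest and the highest of the 9 libraries. Alb, the main gene of the first sum, was lowest there too (29078 CPM). Spp1, the main gene of the second, was higher in OGT-deficient 3 (189.8 CPM) than in OGT-deficient 1 (170.4 CPM). Every other bile duct marker was highest in OGT-deficient 1. OGT-deficient 3 came close to OGT-deficient 1 in both sums (52480 CPM for hepatocyte and 253.75 CPM for bile duct markers). Its enzymes summed to 1789 CPM, with a median deviation of 0.06 from the group mean. The part of these marker levels in the enzyme levels was not tested. Without OGT-deficient 1, 8 of 18 enzymes fell and 2 rose, where of 14173 tested genes 4063 fell and 4077 rose.

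**Figure D3:**
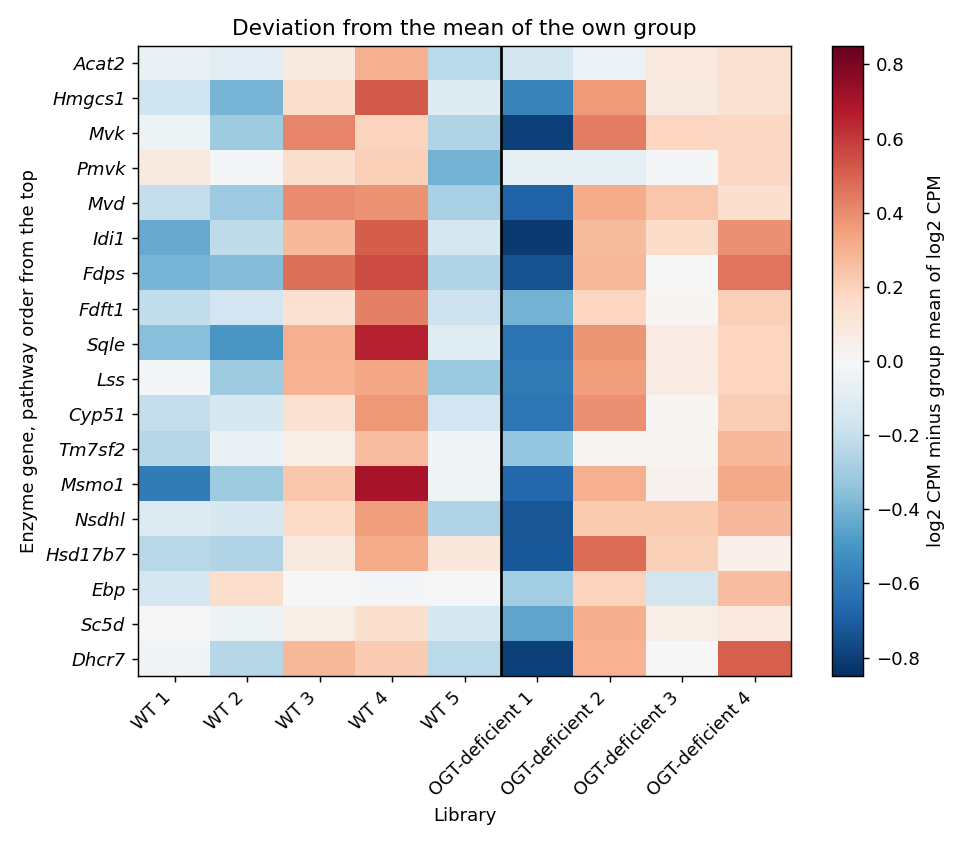
Deviation of log2 CPM from the mean of the library's own group (colour) for the 18 synthesis enzymes in the 9 libraries. Columns are mostly of one colour: WT 4 is above its group mean for every enzyme but Ebp, and OGT-deficient 1 is below it for all 18.

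Among the SREBP2 control genes, the INSIG pair moved in opposite directions, Scap fell and Srebf2 did not pass. Srebf2, the gene for SREBP2, measured 86.3, 69.5, 93.7, 90.2 and 70.4 CPM in WT and 54.8, 89.6, 86.8 and 80.6 CPM in OGT-deficient liver, with overlapping groups (fitted log2 fold change -0.07, SE 0.14, adjusted p = 0.671). The sign of this small difference was positive with upper-quartile factors (0.046) and without OGT-deficient 1 (0.044). Scap stood at 301, 275, 292, 277 and 230.2 CPM in WT and 102, 188, 166 and 206 CPM in OGT-deficient liver (fitted log2 fold change -0.73, SE 0.17, adjusted p = 0.00213). Every OGT-deficient library lay below every WT library, and OGT-deficient 1 was the lowest. An unnamed gene, 5830462I19Rik, shares 13.1% of the 50-base stretches of Scap. Scap stood at 3.07 to 3.96 times Srebf2 in WT, and at 1.86 to 2.55 times in OGT-deficient liver, a pair also chosen after its values were seen.

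Insig1 (chromosome 5, 28071363 to 28078662, plus strand) is itself a classical SREBP2 target. It went from 315, 301, 309.6, 384 and 269 CPM in WT to 133, 183, 181 and 166 CPM in OGT-deficient liver (fitted log2 fold change -0.93, SE 0.12, adjusted p = 2.93e-05). Insig2 (chromosome 1, 121304353 to 121332589, minus strand) is known in rodent liver for a transcript that insulin lowers and fasting raises. It went from 173, 228, 165, 110.4 and 174 CPM to 262, 257, 243 and 328 CPM (fitted log2 fold change 0.68, SE 0.16, adjusted p = 0.00318). Neither gene's groups overlapped. Per kilobase of exon, Insig1 stood above Insig2 in WT (102.1 ± 13.7 and 48.9 ± 12.0 CPM per kb, SD, n = 5) and below it in OGT-deficient liver (53.6 ± 7.38 and 78.5 ± 10.8 CPM per kb, SD, n = 4). Lengths were the union of all annotated exons, which understates genes with long alternative transcripts. The upstream bases of Insig2 are shown as those of the SREBP2 control gene that rose.
Insig2 (chr1:121332590-121332839, minus strand): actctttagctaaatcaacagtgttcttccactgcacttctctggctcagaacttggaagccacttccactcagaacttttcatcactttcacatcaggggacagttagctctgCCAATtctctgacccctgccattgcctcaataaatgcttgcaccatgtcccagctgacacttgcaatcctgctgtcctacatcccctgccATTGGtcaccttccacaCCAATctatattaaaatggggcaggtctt
They hold NF-Y boxes at -136, -46 and -29 and no GC box, and come from the first of 3 starts listed for the gene.

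The balance of related genes within a library was compared for 7 pairs, as the log2 ratio of their counts, in two-sided exact permutation tests. The smallest p that 5 against 4 libraries allow is 0.0159. For Insig1 to Insig2 the WT libraries had log2 ratios of 0.86, 0.40, 0.91, 1.80 and 0.63, and the OGT-deficient libraries of -0.97, -0.49, -0.43 and -0.98. WT 4 combined the highest Insig1 value with the lowest Insig2 value. The mean difference was -1.64 (exact permutation p = 0.0159, adjusted over the 7 pairs 0.0278). As each gene alone separated the groups, in opposite directions, this p could only be the smallest possible. It adds no support to the calls of the single genes. The log2 ratio of Srebf2 to Srebf1, the gene for the lipogenic relative of SREBP2, was higher by 1.12 in OGT-deficient liver. Its mean was -1.96 ± 0.242 in WT (SD, n = 5) and -0.85 ± 0.305 in OGT-deficient liver (SD, n = 4, exact permutation p = 0.0159, adjusted 0.0278). Srebf1 fell by 1.23, while Srebf2 did not pass. The ratio of Acat2, with its uncertain count, to the mitochondrial thiolase gene Acat1 was higher by 0.84. Acat1 fell by 0.68, while Acat2 did not pass. The ratio of Soat1 to Soat2 was higher by 0.97. Both ratios had the same exact p values as that of Srebf2 to Srebf1. Srebf1 and Acat1 each separated the groups by their single levels, so the p values of their ratios are not independent of those falls. The single levels of Soat1 and Soat2 both overlapped. The ratios of Npc1 to Npc2 (difference 0.06, adjusted exact p = 0.667), Lrp1 to Scarb1 (-0.08, adjusted exact p = 0.667) and Idi1 to Idi2 (-0.83, adjusted exact p = 0.533) did not pass. Idi2 had at most 3 counts in a library, so the last ratio carries little information.

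**Figure D4:**
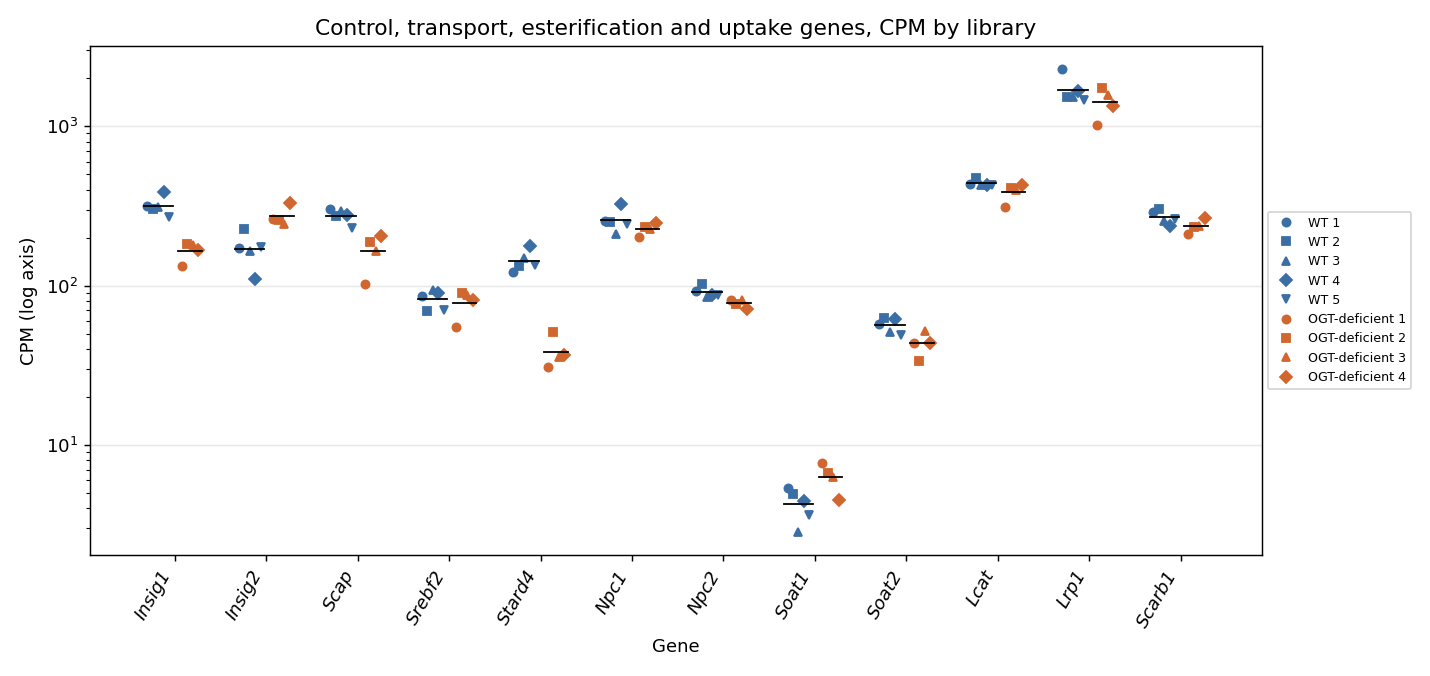
CPM (log axis) of the 12 genes of SREBP2 control, sterol transport, esterification and lipoprotein uptake, drawn as for the enzymes. Insig1, Scap, Stard4, Npc2 and, only just, Lcat are separated downward in OGT-deficient liver and Insig2 upward. Srebf2, Npc1, Soat1, Soat2, Lrp1 and Scarb1 overlap.

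Of the 3 transport genes, Stard4 and Npc2 fell. Stard4 encodes a soluble carrier that moves cholesterol between membranes and is another known SREBP2 target. It measured 122, 133, 149, 177 and 135 CPM in WT and 30.8, 50.9, 35.8 and 36.6 CPM in OGT-deficient liver, a decrease of 3.71-fold in the mean (fitted log2 fold change -1.89, SE 0.15, adjusted p = 5.55e-07). The groups were far apart, with a highest OGT-deficient value well under the lowest WT value. Npc1 and Npc2 encode the membrane and the soluble protein that pass cholesterol out of lysosomes. Npc1 stood at 255, 251, 212, 323 and 244 CPM in WT and 202, 232, 226 and 247 CPM in OGT-deficient liver (fitted log2 fold change -0.18, SE 0.11, adjusted p = 0.186), with overlap. Npc2 went from 92.8, 102, 84.2, 87.8 and 87.2 CPM to 80.6, 76.3, 81.4 and 71.0 CPM without overlap (fitted log2 fold change -0.23, SE 0.08, adjusted p = 0.0241). The call for Npc2 was lost with upper-quartile factors (0.277) and without WT 2 (0.0526) or OGT-deficient 4 (0.0516).

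The esterifying enzymes split. Soat2 encodes the sterol acyltransferase typical of hepatocytes, and Soat1 its relative found in macrophages and many other cells. Soat2 measured 57.7, 62.6, 51.4, 61.4 and 49.2 CPM in WT and 43.9, 33.8, 51.9 and 43.6 CPM in OGT-deficient liver, and only OGT-deficient 3 reached into the WT range (fitted log2 fold change -0.38, SE 0.12, adjusted p = 0.0140, and 0.0876 with upper-quartile factors, the highest of its alternatives). Soat1 stood far lower per kilobase (0.433 against 25.5 CPM per kb in WT), and measured 5.38, 4.89, 2.86, 4.44 and 3.64 CPM in WT and 7.76, 6.63, 6.31 and 4.53 CPM in OGT-deficient liver (fitted log2 fold change 0.57, SE 0.20, adjusted p = 0.0250). The call for Soat1 was lost without WT 3 (0.0513), WT 5 (0.0550), OGT-deficient 1 (0.0936) or OGT-deficient 2 (0.0569). Summed macrophage markers stood between 212.5 and 288.8 CPM in WT and between 454.7 and 591.8 CPM in OGT-deficient liver, and their part in the Soat1 result was not tested. Of the 8 macrophage markers, Cd63 had the greatest share in that difference, with a mean that went from 10.8 to 207 CPM, followed by Cd9 with 16.8 and 71.7 CPM. Adgre1 (27.7 and 33.4 CPM) and Clec4f (172.7 and 176.4 CPM) did not pass. Lcat, the gene for the enzyme that esterifies cholesterol on circulating lipoproteins, had the highest level per kilobase of the 30 genes in both groups. It measured 432, 474, 430.5, 428 and 428 CPM in WT and 311, 409.7, 395 and 427 CPM in OGT-deficient liver. All OGT-deficient values lay below the WT values, OGT-deficient 4 only just, and the gene did not pass (fitted log2 fold change -0.19, SE 0.10, adjusted p = 0.118). It passed without OGT-deficient 4 (adjusted p = 0.0466, range 0.0466 to 0.561).

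The uptake genes did not pass, in edgeR's test, at an unadjusted p under 0.05, in DESeq2 or in limma voom (0 of 2 each). Lrp1 encodes a large endocytic receptor for lipoprotein remnants. It measured 2282, 1521, 1514, 1651 and 1458 CPM in WT and 1017, 1730, 1567 and 1329 CPM in OGT-deficient liver (fitted log2 fold change -0.26, SE 0.17, adjusted p = 0.206). WT 1 stood above and OGT-deficient 1 below the other 7 libraries. Scarb1 encodes the receptor for high-density lipoprotein, and it stood at 288, 300.1, 253, 235 and 262 CPM in WT and 211, 232, 236 and 265 CPM in OGT-deficient liver (fitted log2 fold change -0.18, SE 0.10, adjusted p = 0.119). Scarb1 passed without OGT-deficient 4 (adjusted p = 0.0380, range 0.0380 to 0.602).

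Promoters were read for the 23 genes with an entry in the RefSeq promoter table (GRCm38.p6), as the 250 bases before an annotated start. SREBP2 is known to bind sterol regulatory elements together with NF-Y, whose box reads CCAAT, and with factors that bind GC boxes. At least 1 NF-Y box on either strand was found for 20 of the 23 genes (87.0%), against 37.5% of all 27025 genes in the table. The 3 without it were Acat2, Scap and Lrp1. A GC box (GGGCGG, either strand) was found for 20 of 23 genes, against 35.4% of all genes, and an E-box (CACGTG) for 5 of 23 (21.7%), against 6.86%. The strict sterol regulatory element TCACNCCAC, on either strand, matched for Hmgcs1 alone (1 of 23, against 1.22% of all genes). The 23 genes were not matched to the table for expression or base composition. NF-Y boxes stood before genes that fell (Mvk, Hsd17b7), genes that rose (Mvd, Insig2) and genes that did not pass (Hmgcs1, Cyp51).

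Of 75 other genes of the pathway, arranged in 6 lists, 73 were tested, of which 29 fell (39.7%) and 16 rose (21.9%), against 29.4% and 31.6% of all tested genes. Their median log2 fold change was -0.16. These lists, too, were chosen with earlier results of these data known. The 2 untested genes were Idi2 and Ch25h. The counts of each list below stand against the same shares of all tested genes.

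In the list of acetyl-CoA supply, 3 of 6 genes fell and 1 rose. Acss2, which makes acetyl-CoA from acetate, fell by 1.46 on the log2 scale, from 203 ± 32.9 (SD, n = 5) to 73.9 ± 8.77 CPM (SD, n = 4), and Acat1 fell by 0.68. Acly, which makes cytosolic acetyl-CoA from citrate, rose by 0.85, from 286 ± 47.9 (SD, n = 5) to 515 ± 110.4 CPM (SD, n = 4). Of 11 tested genes of isoprenoid branches 3 fell and 3 rose, and 1 fell with upper-quartile factors or without OGT-deficient 3. Dhdds, a subunit of the enzyme that begins dolichol synthesis, fell by 0.99, while Pdss2, which makes the side chain of coenzyme Q, and the prenyltransferase subunit genes Pggt1b and Fntb rose by 0.56, 0.44 and 0.64.

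Among 19 genes of SREBP processing and sterol-linked protein degradation, 8 fell and 6 rose. Tmem97, a sterol-responsive membrane protein gene, fell by 1.71, from 101 ± 6.30 (SD, n = 5) to 30.7 ± 5.89 CPM (SD, n = 4), the ubiquitin ligase gene Marchf6, listed as March6, fell by 0.79, and Srebf1 fell by 1.23. Rnf145, another ubiquitin ligase gene, rose by 0.67.

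Of 15 genes of intracellular sterol transport 6 fell and 3 rose. The sterol carrier gene Stard5 fell by 0.75, the lysosomal membrane protein gene Lamp2 fell by 0.67, the endosomal ATPase gene Vps4a fell by 0.52 and the lipid carrier gene Osbpl9 fell by 0.51. Of 12 lipoprotein uptake genes 3 fell and 3 rose. The receptor chaperone gene Lrpap1 fell by 0.80. The scavenger receptor gene Cd36 rose by 1.03 and the receptor gene Vldlr by 1.58, from 1.42 ± 0.619 (SD, n = 5) to 4.34 ± 1.35 CPM (SD, n = 4). Of 10 tested genes of sterol efflux and the sterol-sensing LXR receptors 6 fell. None rose in edgeR's test, at an unadjusted p under 0.05, in DESeq2 or in limma voom, and 1 did so with upper-quartile factors, without WT 1 or without OGT-deficient 4. Cyp27a1, a sterol hydroxylase gene of bile acid synthesis, fell by 1.42, from 521 ± 80.3 (SD, n = 5) to 195 ± 23.3 CPM (SD, n = 4). The LXR gene Nr1h2 fell by 0.72, its partner receptor gene Rxra fell by 0.61 and the biliary sterol exporter gene Abcg8 fell by 0.46.

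**Figure D5:**
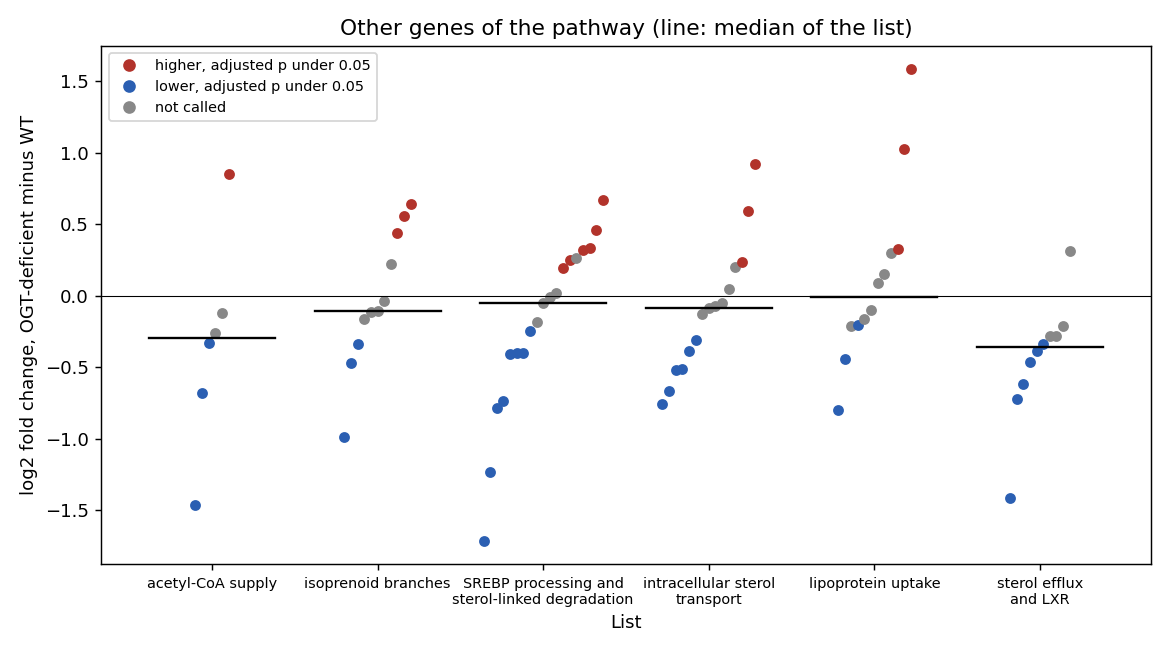
Log2 fold change (OGT-deficient minus WT) of the 73 tested other genes of the pathway in 6 lists, coloured by call, with a line at each list's median. The medians lie between -0.36 (sterol efflux and LXR) and -0.00485 (lipoprotein uptake), and in the first 5 lists genes rose and fell side by side.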

How the data were processed

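TopHat2 2.1.0, HTSeq 0.9.1 and the build mm10 (GRCm38) are listed in the submitters' processing notes. The authors deposited raw read counts for 24421 gene symbols per library, followed by 5 summary lines, which were left out. The roles of these tools, the annotation release and the strand setting were not given in the sources used here. Groups and replicate numbers came from the titles. Within groups, 16 pairs of libraries gave a chi-square per degree of freedom of 23.9 to 135.0, so none was treated as a duplicate.

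The tests used edgeR 4.0.16 in R 4.3.3 (filterByExpr, TMM, glmQLFit and glmQLFTest on group alone, Benjamini-Hochberg over 14104 genes, threshold 0.05), and were tried on simulated data. SEs were derived from the F statistic. Paired log2 ratios used 0.5 added to each count. The labels do not say whether mice were independent beyond being separate samples. The p-values therefore set a group difference against the spread between these samples, and may not extend to other mice. Alternatives were DESeq2 size factors, upper-quartile factors, TMM without the 30 most abundant genes, no filter, CPM above 1 in 4 libraries, DESeq2 1.42.0, limma 3.58.1 voom, a replicate block, leaving out each library, and 5 added to each count of the ratios. Coordinates, lengths, overlaps and 50-base stretches came from GENCODE M21. The members and lists were chosen with earlier results of these data known. All 30 members are named, and of each other list the 4 genes with the smallest p. Genes outside this rule were named after their values were seen, and a few genes inside it are not reported here. Other enzymes and receptors of cholesterol metabolism are not analysed here. Figures used matplotlib 3.10.9.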

Additional observations from a re-analysis of the deposited data

Results flagged for a closer look

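In 3 of 60 groups of values (30 genes in 2 groups) a library stood apart from the rest of its group, by a gap that exceeds Dixon's critical value at 95%. Chance alone flags about 1 in 20 groups. Nsdhl in OGT-deficient 1 measured 26.5 CPM, against 51.4 to 53.3 CPM in the other OGT-deficient libraries. Lcat in WT 2 measured 473.9 CPM, against 427.6 to 431.8 CPM in the other WT libraries. Lrp1 in WT 1 measured 2282 CPM, against 1458 to 1651 CPM in the other WT libraries.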

How the results depend on the processing

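Of the 17 called members, 13 were called under all 17 alternatives, and Fdps, Npc2, Soat1 and Soat2 were not. Of the 13 others, 7 were called under none. Members called lower numbered 11 to 16 and members called higher 2 to 4. Synthesis enzymes called lower numbered 8 to 11, and those called higher 1, except 2 with upper-quartile factors (Acat2 added) and a range of 1 to 2 on leaving out single libraries (2 without OGT-deficient 1, with Dhcr7 added). The sign of small differences reversed for Srebf2 with upper-quartile factors (0.0464), and it ranged from -0.158 to 0.0445 on leaving out single libraries. It also reversed for Cyp51 with the replicate block (-0.0354), and ranged from -0.110 to 0.183 on leaving out single libraries (negative without WT 1, WT 2, WT 5, OGT-deficient 2 or OGT-deficient 4). The cause was not tested. On leaving out single libraries the differences in log2 ratio ranged from -1.77 to -1.42 for Insig1 to Insig2, from 0.823 to 1.13 for Soat1 to Soat2, from 1.03 to 1.25 for Srebf2 to Srebf1 and from 0.774 to 0.942 for Acat2 to Acat1. Without an OGT-deficient library their smallest possible exact p is 0.0357, and the adjusted p was 0.0625. Without a WT library the smallest possible exact p is 0.0286, which after adjustment over the 7 pairs lies at the threshold of 0.05. The ranges were -0.198 to 0.012 for Lrp1 to Scarb1, -0.0208 to 0.158 for Npc1 to Npc2 and -1.38 to -0.236 for Idi1 to Idi2. Same-numbered libraries did not deviate together (4 correlations of -0.103 to 0.104), so the numbers were not taken as pairs. With the replicate block 15 members fell and 3 rose, and Idi1 and Lss gained and Npc2 lost a call (adjusted p = 0.0589 for Npc2). Of the 14104 tested genes 3760 fell and 4109 rose with that block. In the 6 other lists together, 13 to 20 genes rose and 22 to 33 fell across the alternatives, against 16 and 29. Among the 30 members reads were fewest for Soat1 (102 to 368 counts per library). Of the other genes named, Idi2 had at most 3 counts, Ch25h at most 23, and Vldlr 25 to 276.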
